A study of Drosophila melanogaster with 3 samples.

Results

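The genes described here encode the nuclear subunits of oxidative phosphorylation, the pathway by which mitochondria turn the energy of nutrients into ATP. They were chosen by name, as every nuclear gene whose FlyBase symbol starts with ND-, Sdh, UQCR-, COX followed by a digit, or ATPsyn. The Drosophila annotation held 88 such genes, all protein coding, among 13945 genes of that kind in the nuclear genome. An isoform model for 49 of them was present in the assembly, and these 49 genes had 61 of the 5980 models in all. In 3 samples, the study sequenced heads of w1118 adult flies, 3 days old and grown at 25 °C, with no treatment named. The study took males and females in equal amounts. It used FLAM-seq, a long-read method that reads an mRNA in full together with its poly(A) tail, and merged the reads of the 3 samples into a single set of isoform models. A model is a list of exon coordinates, with no column that is named a read count, so neither the depth behind a model nor the spread between samples is known, and no comparison below carries a test. Intervals are 95% Wilson intervals for shares and 95% binomial order-statistic intervals for medians, and they cover counting error over genes or models only.

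Electrons enter the respiratory chain at complex I (NADH dehydrogenase) or complex II (succinate dehydrogenase), pass through complex III and cytochrome c, and reach oxygen at complex IV (cytochrome c oxidase). Complexes I, III and IV pump protons across the inner membrane, and complex V (ATP synthase) lets them flow back to make ATP. Most subunits are encoded in the nucleus and imported, while a few are encoded in the mitochondrial genome and were not among the genes chosen. Photoreceptors and neurons, which fill much of a fly head, depend heavily on this pathway. Drosophila also carries copies of many subunit genes, here the genes whose symbol ends in L or in L and a number, and several such copies in this species are known for expression in the testis.

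Members with a model were found in all 5 complexes, with the lowest share in complex II. A model was found for 22 of 40 genes of complex I, 3 of 8 of complex II, 5 of 9 of complex III, 10 of 16 of complex IV and 9 of 15 of complex V. Over all members this was 55.7% (45.3% to 65.6%), against 33.4% of all coding genes. The copies lowered these shares. Among the 63 subunit genes 43 had a model (68.3%, 56% to 78.4%), against 6 of the 24 copies (25%, 12% to 44.9%), and the single assembly factor chosen by the rule, Sdhaf3, had none. Among subunit genes alone complex V had the highest share and complex I the lowest. Subunit genes were represented at 21 of 34 in complex I, 3 of 4 in complex II, 4 of 6 in complex III, 6 of 8 in complex IV and 9 of 11 in complex V, and the intervals of these shares overlapped one another. Other lists of short housekeeping genes had similar or higher shares, with 47 of 73 mitochondrial ribosomal protein genes (64.4%, 52.9% to 74.4%) and 74 of 93 cytoplasmic ribosomal protein genes (79.6%, 70.3% to 86.5%).

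**Figure D1:**
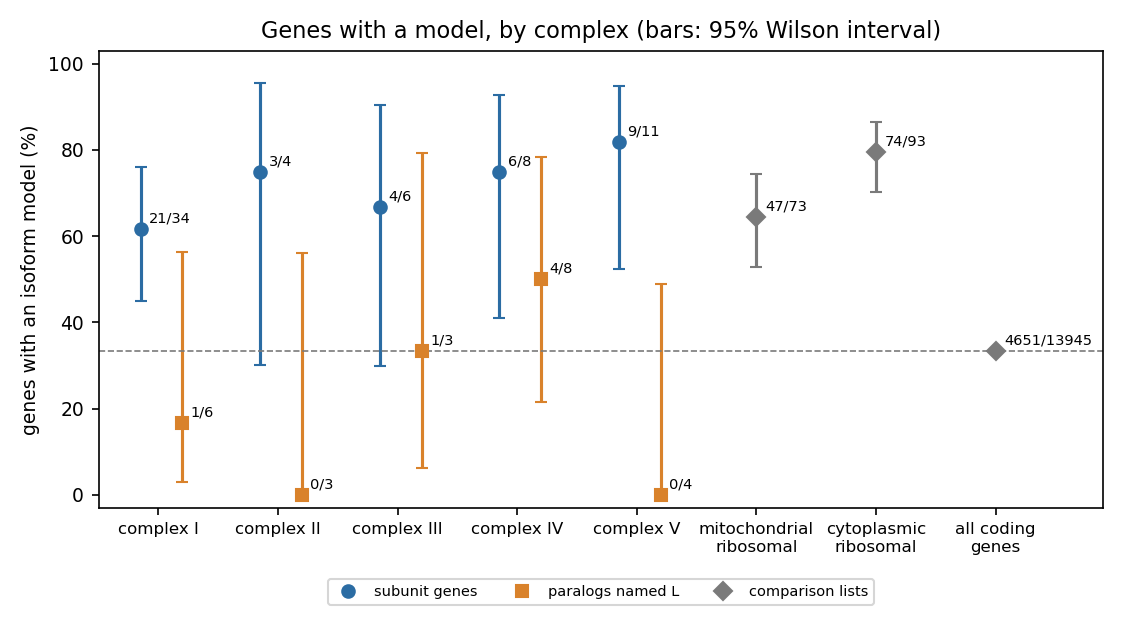
Share of genes with at least 1 isoform model (y axis, percent) for subunit genes and copies of each complex, for 2 ribosomal protein lists and for all coding genes; bars are 95% Wilson intervals, the dashed line is the share of all coding genes, and the fractions give genes with a model over genes in the list. Subunit genes lie above the dashed line in all 5 complexes, while complex II and complex V have 0 of 3 and 0 of 4 copies with a model.

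Within complex I, the nuclear core subunits together hold the flavin and the iron-sulfur clusters. ND-51 (human NDUFV1), ND-49, ND-30 (human NDUFS3) and ND-20 (human NDUFS7) had a model. The core genes ND-75 (human NDUFS1), ND-24 (human NDUFV2) and ND-23 (human NDUFS8) had none. Among the accessory subunits, which surround the core, 17 of 27 had a model (63.0%, 44.2% to 78.5%). The accessory genes without one were ND-18, ND-42, ND-B12, ND-B14, ND-B14.5A, ND-B14.5B, ND-B17, ND-B8, ND-MLRQ and ND-PDSW. ND-MLRQ is counted with complex I by its symbol, although its human counterpart NDUFA4 is now placed in complex IV. The core share was 57.1% (25.0% to 84.2%), an interval that takes in the accessory share.

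In complex II, the iron-sulfur protein gene SdhB and the membrane anchor genes SdhC and SdhD had a model, and SdhA, which encodes the catalytic flavoprotein, had none. In complex III, UQCR-C1, UQCR-14, UQCR-Q and UQCR-6.4 were represented, whereas UQCR-C2 and UQCR-11 were not. In complex IV, COX5A, COX5B, COX6B, COX7A, COX7B and COX7C had a model, and COX4 and COX8 had none. In complex V, the catalytic subunit gene ATPsynbeta, the central stalk genes ATPsyngamma and ATPsyndelta and the membrane ring gene ATPsynC were all represented. So were the stalk genes ATPsynO, ATPsynD and ATPsynCF6 and the membrane-part genes ATPsynE and ATPsynF, leaving ATPsynB and ATPsynG without a model. A missing model is not evidence of a missing mRNA, because a model needed at least 2 full-length reads that met the filters of the assembly.

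The copies with a model were COX4L, COX5BL, COX6AL2 and COX7AL2 in complex IV, ND-49L in complex I and UQCR-14L in complex III. The copies without one were ND-20L, ND-24L, ND-51L1, ND-51L2, ND-B14.5AL, SdhAL, SdhBL, SdhCL, UQCR-11L, UQCR-6.4L, COX6AL, COX6CL, COX7AL, COX7CL, ATPsynCF6L, ATPsynGL, ATPsynbetaL and ATPsynepsilonL. For 20 copies the subunit gene of the same stem was also among the members. Of these 20 pairs, 10 had a model of the subunit gene alone, 4 had models of both, 5 had neither and 1 had a model of the copy alone. That pair was COX4L and COX4, and no exon of COX4 was overlapped by a model on its own strand. Markers of other cell types were checked beside them. A model was present for 6 of 11 eye and neuron genes (the opsins ninaE, Rh3, Rh4 and Rh6, with Arr2 and nSyb), and the 5 without one, trp, norpA, elav, brp and Syt1, all had a shortest annotated transcript over 2000 nt. A model was also present for 4 of 5 fat body genes, 3 of 4 muscle genes and 6 of 8 male germline genes, namely Mst84Da, Mst84Db, Mst84Dc, Mst87F, dj and djl. How far RNA from the germline contributed to the models of the copies was not tested.

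The shares were also set out by transcript length. The shortest annotated transcript of a member had a median length of 649 nt, against 1520 nt over all coding genes. In the class from 500 to below 1000 nt, 27 of 36 subunit genes had a model (75%, 58.9% to 86.2%), against 1231 of 3188 coding genes (38.6%). Under 500 nt the counts were 9 of 16 subunit genes (56.2%, 33.2% to 76.9%) and 258 of 831 coding genes (31.0%), and from 1000 to below 2000 nt they were 7 of 9 (77.8%, 45.3% to 93.7%) and 2143 of 5087 (42.1%). None of the 5 members of 2000 nt and over had a model, namely ND-75, SdhA, ND-51L1, SdhAL and ATPsynbetaL, where 21.1% of all coding genes of that class had one. Classed by the longest annotated transcript instead, 3 of 8 members of 2000 nt and over had a model (37.5%, 13.7% to 69.4%), against 25.2% of all coding genes. No model of another gene on the same strand overlapped an exon of the 39 members without a model, and models on the opposite strand overlapped 6 of them by at most 61 nt.

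**Figure D2:**
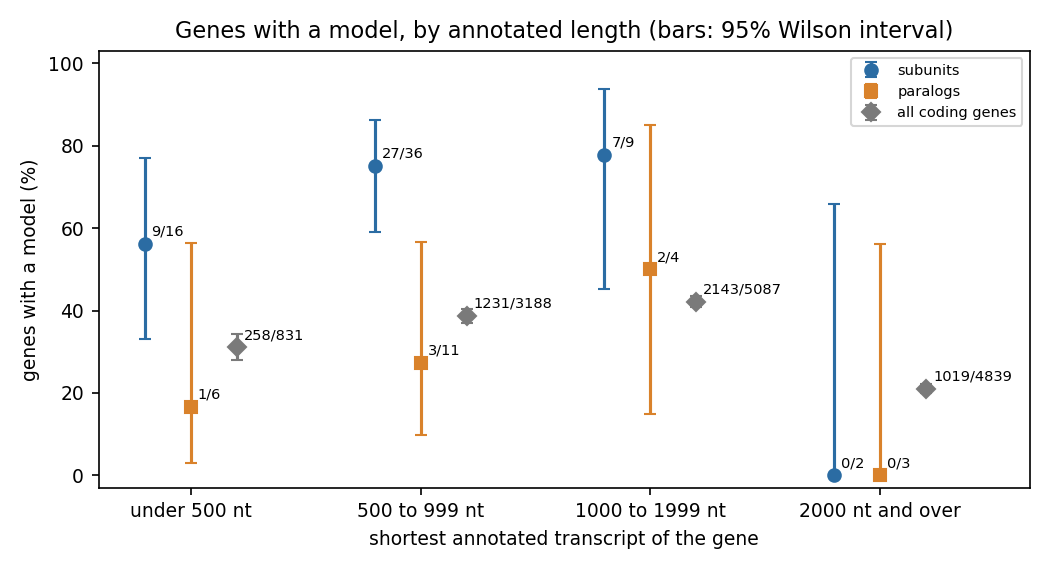
Share of genes with a model (y axis, percent) by the length of the shortest annotated transcript (x axis, 4 classes in nt) for subunit genes, copies and all coding genes, with 95% Wilson intervals and the gene counts. Subunit genes lie above all coding genes in the 3 classes under 2000 nt and have 0 of 2 genes with a model above it.

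Models of the members were short and, with few exceptions, simple. Their median length was 783 nt (655 to 866 nt, 61 models), against 1500 nt (1471 to 1528 nt) over the 5805 models that name a gene. The part between the annotated start and stop codons had a median of 450 nt, against 1006.5 nt over all models that held both codons. The untranslated regions were shorter as well, with a median of 88 nt (79 to 102 nt) at the 5′ end, against 120 nt over all models. At the 3′ end the median was 138 nt (94 to 164 nt), against 199 nt. The median was 3 exons in both sets, but no member model had 7 or more exons, against 13.3% of all models. Models with a single exon were rare as well, with 1 of 61 in members (1.64%, 0.290% to 8.72%), against 11.8% of all models. That exception, UQCR-14L, was recorded on the strand opposite to its gene, and was turned here. Cytoplasmic ribosomal protein genes had a median of 673 nt and 1 of 85 models with a single exon. Mitochondrial ribosomal protein genes had 719.5 nt and 6 of 48 (12.5%).

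Complex medians lay close together. Complex II had the longest median, 893 nt over 3 models. With subunit genes only, that order changed, and complex III was longest with 917 nt over 4 models. The median was 796 nt (639 to 1196 nt) in complex I, 795 nt (532 to 1367 nt) in complex V, 666 nt (422 to 820 nt) in complex IV and 560 nt (424 to 1657 nt) in complex III, and the intervals overlapped throughout. With 5 and 3 models, the interval of complex III and that of complex II are the full range and fall short of 95%. The median number of exons was 3 in complexes I, II, III and V and 2 in complex IV, where 7 of 13 models had 2 exons. Within complex I, model lengths ran from 383 nt for ND-MWFE (human NDUFA1) to 1699 nt for the copy ND-49L, and exon numbers from 2, in 9 models, to 6 in ND-49. In complex II, SdhC was shortest with 655 nt and 2 exons, SdhB was longest with 1218 nt, and SdhD had the most exons, 4. In complex III, UQCR-Q was shortest with 424 nt, and UQCR-C1, a large matrix-facing subunit, was longest with 1657 nt and had the most exons, 6. In complex V, lengths ran from 523 nt for ATPsynF to 2047 nt for ATPsynbeta, and ATPsynC and ATPsyndelta had up to 4 exons.

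**Figure D3:**
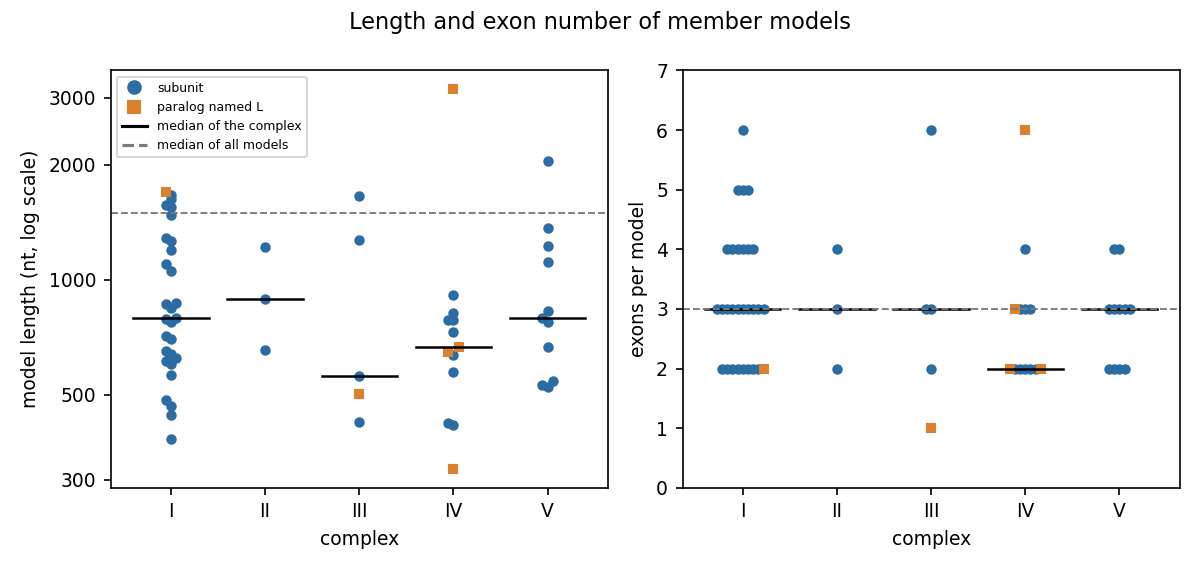
Length in nt on a log axis (left) and number of exons (right) of each of the 61 member models, by complex; circles are subunit genes, squares are copies, black lines are medians of a complex and the dashed lines are the medians of all models, 1500 nt and 3 exons. The squares at both extremes of complex IV are COX7AL2 with 320 nt and COX6AL2 with 3149 nt.

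Complex IV held the widest range, and both extremes were copies. COX7AL2 had the shortest model of any member, 320 nt in 3 exons. COX6AL2 had the longest, 3149 nt in 6 exons over 5890 nt of chromosome 3L, and 2199 nt of its exons lay downstream of the COX6AL2 stop codon. This model ran through Ir75d, an ionotropic receptor gene on the same strand, with 2193 nt of exonic overlap, and Ir75d had no model under its own name. The splice chain of COX6AL2 was not annotated as a whole, although each of its introns was. Overlaps with neighbours on the same strand also touched ND-MNLL, whose 486-nt model lay entirely within the span of CG45089, and COX6B, which shared 74 nt with CG18809. For COX6AL2 and ND-MNLL, which gene of the pair a read came from cannot be told from the models. The 74 nt shared by COX6B were a small part of its models, which had 783 to 820 nt.

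Introns were mostly of the minimal size common in Drosophila. An intron shared by models of the same gene was counted once in each model, so these values are not all independent. The median intron in member models had 73 nt, as it did over all models, but the upper quartile was 206 nt in members and 382 nt in all models. The first intron had a median of 93.5 nt (71 to 129 nt), against 137 nt (125 to 150 nt) over all models. An intron of 80 nt or less was present in 42 of 60 member models with introns (70%, 57.5% to 80.1%), against 80.5% of all such models. Among the complexes, V had the highest median intron, 221 nt (74 to 487 nt), followed by IV with 126 nt (62 to 338 nt), and the intervals overlapped. The longest intron of any member, 3096 nt, belonged to COX6B. GT and AG bounded 122 of the 123 member introns, counted once in each model (99.2%), against 99.1% of introns in other models. The member intron without them was the 63-nt intron of COX4L, which began with GC.

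A sequence that many members carried was the core of the nuclear respiratory gene element, an 8-base palindrome described in Drosophila genes of oxidative phosphorylation. It was searched as the words TTACATAA, TTATGTAA, TTACGTAA and TTATATAA, which cover both strands because the first 2 are reverse complements and the others are their own. In the 1000 nt after the start of the model, 35 of 49 member starts held a word (71.4%, 57.6% to 82.2%), against 12.2% of all 4939 starts. From 2000 to 1000 nt upstream, an interval of equal width, the counts were 6 of 49 (12.2%) and 621 of 4939 (12.6%). The word lying closest to the members' median distance is shown for each complex, with 11 bases on either side and the word in capitals, chosen after the positions were known.
ND-B22, chr2L:13370792-13370821, minus strand: attcccaaataTTATATAAtgagcaagtgc
SdhD, chr3R:23760378-23760407, minus strand: aacagctttcaTTATATAAccaaaccgttt
UQCR-Q, chr3L:17475265-17475294, plus strand: cagtgcgaaaaTTACATAAcctccgggtgc
COX7B, chr3L:17425683-17425712, plus strand: aaccttaaaaaTTACATAAtgtggataagc
ATPsyndelta, chrX:10213186-10213215, plus strand: aacctacaaagTTACATAAtttggttattt

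All 5 words stood in an intron, starting 216 nt from the 5′ end in ND-B22 and COX7B, 204 nt in SdhD and 226 nt in UQCR-Q and ATPsyndelta. Their distances follow from the choice of words close to the median. The first word after the start lay at a median of 216 nt (201 to 233 nt) in the 35 members, against 394 nt (361 to 415 nt) over the 602 of all starts that had one. The bin from 200 to 300 nt alone held a word in 19 of 49 members (38.8%), against 2.19% of all starts. Of the 43 words in the first 1000 nt of members, 31 lay in introns, 26 of them in the first intron, and 7 lay in exons. The remaining 5 lay beyond the 3′ end of the model or across an exon boundary. TTACATAA was the most frequent with 17 of the 43 words, followed by TTACGTAA with 12 and by TTATATAA and TTATGTAA with 7 each.

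**Figure D4:**
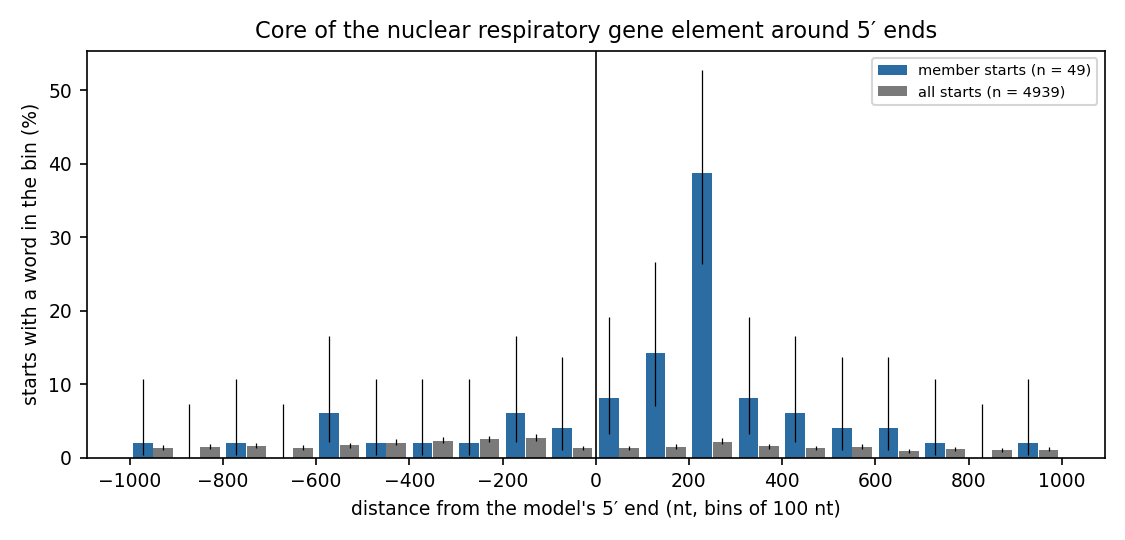
Share of 5′ ends with a word of the nuclear respiratory gene element core (y axis, percent) in bins of 100 nt by distance from the 5′ end (x axis, negative upstream), for the 49 member starts and for all 4939 starts, with 95% Wilson intervals. Member starts peak at 38.8% in the bin from 200 to 300 nt, while no bin of all starts exceeds 2.71%.

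Every complex carried the word, at 15 of 22 starts in complex I, 2 of 3 in complex II, 3 of 5 in complex III, 7 of 10 in complex IV and 8 of 9 in complex V. The copies did not. Among annotated starts, which are also known for genes without a model, 1 of 24 copies had a word in the first 1000 nt (4.17%, 0.739% to 20.2%), against 11% of all coding genes. Subunit genes without a model had one at 14 of 20 annotated starts (70%, 48.1% to 85.5%), and subunit genes with a model at 35 of 43 (81.4%, 67.4% to 90.3%). Related lists also carried it. It was present in 9 of 11 genes of respiratory chain proteins outside the naming rule, in all 5 genes of the ADP/ATP and phosphate carriers and porin, and in 12 of 18 genes of the tricarboxylic acid cycle and pyruvate dehydrogenase. The share was 26.0% (17.3% to 37.1%) for mitochondrial ribosomal protein genes and 4.30% (1.69% to 10.5%) for cytoplasmic ones. A match is a run of letters in the genome and not a measurement of binding.

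Upstream of the start, members differed less from the rest. In the window from 250 nt before to 50 nt after the start, a word of the element was present at 6 of 49 member starts (12.2%, 5.73% to 24.2%), against 5.55% of all starts. The Motif 1 core GGTCACAC was present at 12 member starts (24.5%, 14.6% to 38.1%), against 8.48% of all starts, and the DRE word TATCGATA at 8 (16.3%, 8.51% to 29%), against 9.72%, both counted on either strand. The TATA box word TATAAA was found on either strand at 42.9% of member starts and 45.4% of all starts.

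A divergent neighbour was common. Within 500 nt upstream of the start, another coding gene began on the opposite strand at 25 of 49 member starts (51.0%, 37.5% to 64.4%), against 25.9% of all starts. All of these members were subunit genes, and none of the 6 copies with a model had such a neighbour. Mitochondrial ribosomal protein genes had a still higher share, 78.7% (65.1% to 88.0%). Some of the 26 divergent neighbours also act in mitochondria, and how often neighbours of other genes do was not counted. ND-ASHI (human NDUFB8) lay head to head with the fumarase gene Fum1, ND-B16.6 (human NDUFA13) with the citrate synthase gene kdn, and ATPsynD with mRpL55. Fum1 and mRpL55 had a model and kdn had none.

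No member had more than 1 transcription start site. Sites were counted as separate when more than 50 nt apart, and 0 of 49 members had 2, which allows a share of up to 6.12% (3 counts of 49), against 4.58% of all genes with a model. Alternative 3′ ends, counted as separate when more than 150 nt apart, occurred in 3 of 49 members (6.12%, 2.10% to 16.5%), against 4.2% of all genes. They belonged to ATPsynC, ND-20 and ND-B16.6. More than 1 model was present for 10 of 49 members (20.4%, 11.5% to 33.6%), against 14.9% of all genes, and all 10 were subunit genes, with 6 in complex I, 2 in complex IV and 2 in complex V. The shares of 3′ ends and models over the 49 members were near the background, which lay within both intervals. A second end can be seen only in a gene with more than 1 model, and 39 of the 49 members had 1. Among genes with more than 1 model, 0 of 10 members had 2 start sites (0% to 27.8%), against 30.8% of all such genes. For alternative 3′ ends the shares were 3 of 10 members (30%, 10.8% to 60.3%) and 28.2%. Mitochondrial ribosomal protein genes had more than 1 model in 1 of 47 genes.

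Most ends coincided with annotated ones. The 5′ end was at an annotated transcript start of the gene in 53 of 61 member models (86.9%), against 90.8% of all models of annotated genes, and the 3′ end was at an annotated end in 45 of 61 (73.8%), against 72.3%. Models began or ended 1 nt inside the annotated coordinate at their left edge, and this was counted as coinciding. The sources do not say whether the assembly moved read ends to annotated positions. The models that departed most were those of ATPsynD, which began 95 nt upstream of the nearest annotated start, and of UQCR-14 (human UQCRB), which ended 752 nt beyond the annotated end and had an 817-nt 3′ UTR. The UQCR-14 model lay within the locus of CG32576, on the opposite strand.

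At ATPsynC, the membrane ring gene of ATP synthase, the 3′ ends lay 625 nt apart and the 3′ UTR had 868 nt in the longer model and 243 nt in the shorter one. The models of ND-20, a core subunit of complex I, ended 444 nt apart and had 3′ UTRs of 605 and 161 nt. Those of ND-B16.6 ended 220 nt apart, with 3′ UTRs of 679 and 459 nt. The last 30 nt of the ends of ATPsynC and ND-20 are shown because they carry poly(A) signals. Only the highest-ranked word of each end, AATAAA where present, is in capitals, and other variants are left in lower case.
ATPsynC distal, chr3R:31216146-31216175, minus strand: ctgaAATAAAggagaaatgaatgtgtaatg
ATPsynC proximal, chr3R:31216771-31216800, minus strand: atctaatTATAAAtaccaacaacaaccaca
ND-20 distal, chrX:15985406-15985435, minus strand: aacgaaaaatacaaaaagaAATAAAtattt
ND-20 proximal, chrX:15985850-15985879, minus strand: attgcaAATAAAtgcctttcgatataaata

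ATPsynC had the canonical AATAAA at its distal end and the variant TATAAA at its proximal end, 25 and 22 nt before the end. ND-20 had AATAAA at both, 10 nt before the distal end and 23 nt before the proximal one. ND-B16.6 had none of the 12 signal words in the last 50 nt of its distal end, where 9 of the next 10 genomic bases were A. That end coincided with an annotated end.

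Over all 52 member ends, AATAAA was present in the last 50 nt at 25 (48.1%, 35.1% to 61.3%), against 54.5% of 4918 ends in all. A further 6 had ATTAAA, 13 had only one of the 10 other variants, and 8 had none of the 12 words (15.4%, 8.01% to 27.5%), against 13.4% of all ends. The 10 other variants, read on the strand of the gene, were the word AATATA, the word TATAAA, the word AATACA, the word CATAAA, the word AATGAA, the word GATAAA, the word ACTAAA, the word AAGAAA, the word AATAGA and the word TTTAAA. In a window of equal width 200 nt upstream, AATAAA was present at 1 of 52 member ends (1.92%) and 3.27% of all ends. Where present, AATAAA began a median of 25 nt before the end in members and 22 nt in all. At least 7 A among the next 10 genomic bases followed 6 of 52 member ends (11.5%, 5.40% to 23.0%) and 10.4% of all ends. The shares of all ends lay within the members' intervals.

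The splice chain matched an annotated transcript in full in 54 of 60 member models with introns (90%, 79.9% to 95.3%), against 86.4% of all such models. Each of the 10 genes with more than 1 model had models that differed in splicing, as did 99.6% of all 698 such genes. In 7 of the 10 members an intron was kept in one model and removed in another (70%, 39.7% to 89.2%), against 47.9% of all 698 genes. The differences lay upstream of the coding part in 6 genes, within it in 4 and downstream of it in 1, with COX6B counted under the first 2. The genes with differences within the coding part were ND-39, ND-49 and ND-ACP of complex I and COX6B of complex IV.

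**Figure D5:**
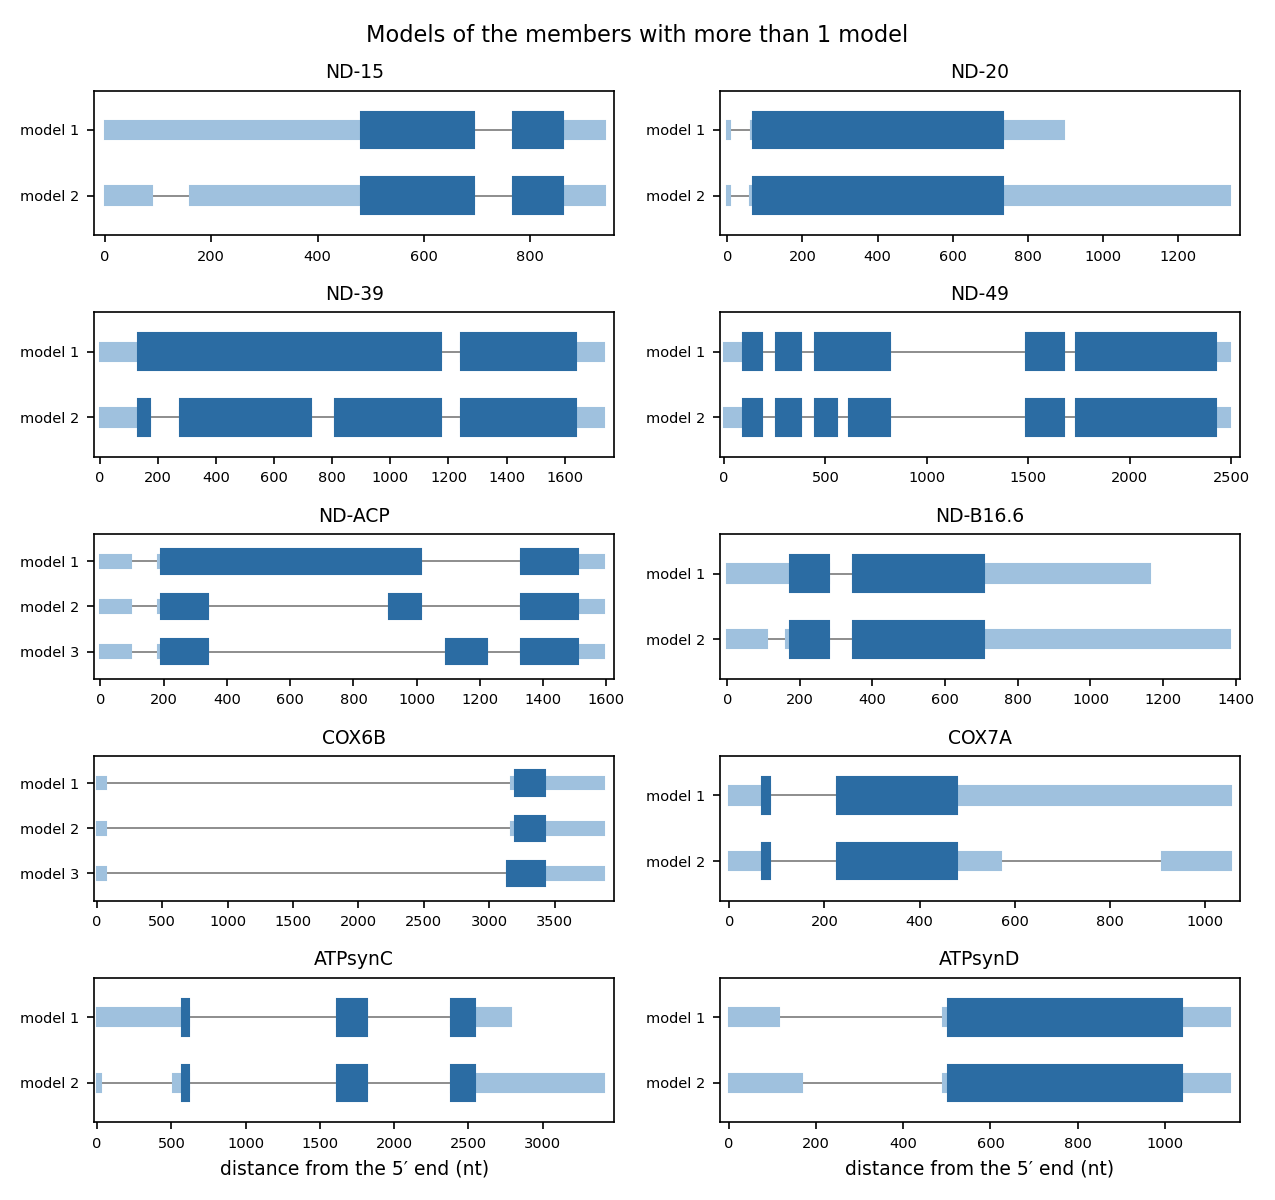
Exons (boxes) and introns (lines) of every model of the 10 members with more than 1 model, to scale by distance from the 5′ end in nt; dark tall boxes lie between the annotated start and stop codons and pale boxes outside them. Starts coincide within each gene, while ends differ in ND-20, ND-B16.6 and ATPsynC.

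ND-39 (human NDUFA9) had a spliced model of 1482 nt in 4 exons and a second of 1669 nt in 2 exons, which kept introns of 105 and 82 nt. Read from the annotated start codon, the spliced model had a frame of 416 codons and the other met a stop after 29. ND-49 had models of 1572 nt in 6 exons and 1629 nt in 5 exons. The second kept a 57-nt intron, a multiple of 3, and met a stop after 110 codons where the spliced model had 468. The donor sites of these kept introns are shown with the first 2 intron bases in capitals, since these sites were used in one model of the gene and not in the other.
ND-39 intron of 105 nt, chr3L:20495505-20495534, plus strand: atctccagctggccaGTgagtaccgtgcct
ND-39 intron of 82 nt, chr3L:20496061-20496090, plus strand: ggagaggatcgctagGTgaacatcatagcc
ND-49 intron of 57 nt, chr4:570219-570248, minus strand: gagctggatggagagGTttaagctgttaat

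ND-ACP encodes the acyl carrier protein, which is a subunit of complex I and also carries the growing chain in mitochondrial fatty acid synthesis. Its 3 models shared both ends. One had an alternative exon of 102 nt and a frame of 143 codons, and another replaced that exon by one of 129 nt further downstream and had a frame of 152 codons. The remaining model, of 1196 nt in 3 exons, kept the 572-nt intron before the 102-nt exon and met a stop after 70 codons. The acceptor sites of the alternative exons are shown with the last 2 intron bases in capitals.
ND-ACP 102-nt exon, chr3L:1330848-1330877, plus strand: cattaacattcgcAGaagttcggtgtgcgc
ND-ACP 129-nt exon, chr3L:1331027-1331056, plus strand: ccggccaaaaaccAGgagtgccgtggtcgc

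In the other 58 of 61 member models, the frame from the annotated start codon ran to the annotated stop codon. The splice differences of ND-15, ND-20, ND-B16.6, ATPsynC and ATPsynD left the frame as it was and changed the 5′ UTR. ND-15 (human NDUFS5) kept or removed a 71-nt intron, so that its 5′ UTR had 482 or 411 nt, among the longest of the members. ND-B16.6 kept or removed one of 54 nt, and the model that kept it had the proximal 3′ end. ATPsynC kept or removed one of 487 nt, with a 5′ UTR of 569 nt in the model with the proximal end and 82 nt in that with the distal end. Since each of these genes had 2 models, whether start-proximal splicing and 3′ end vary together across mRNAs cannot be told from them. ATPsynD had donor sites 53 nt apart, for a 5′ UTR of 128 or 181 nt.

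Neighbouring acceptor sites 3 nt apart were used in ND-20 and in COX6B. In ND-20 the first exon had 8 nt and the intron 51 or 54 nt, which left 18 or 15 nt before the start codon. In COX6B the intron had 3093 or 3096 nt, and a further model used an acceptor 34 nt further upstream, with 3059 nt of intron. That further model held another annotated start codon and a frame of 96 codons, against 77 codons in the others. The acceptors are shown with the last 2 intron bases in capitals, to let the 3-nt shift be seen.
ND-20 intron of 51 nt, chrX:15986672-15986701, minus strand: acagatttactttAGcaggatcaacatgct
ND-20 intron of 54 nt, chrX:15986669-15986698, minus strand: gatttactttagcAGgatcaacatgctgcg
COX6B intron of 3059 nt, chrX:19741188-19741217, minus strand: ctttgccaactaaAGtctatatgcaatttt
COX6B intron of 3093 nt, chrX:19741154-19741183, minus strand: gtccaaaaacaaaAGcagcgacaaatcgtc
COX6B intron of 3096 nt, chrX:19741151-19741180, minus strand: caaaaacaaaagcAGcgacaaatcgtcaga

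COX7A was the single member whose models differed downstream of the stop codon without a second end. Its models had 575 and 913 nt, and the longer one kept a 338-nt intron, for a 3′ UTR of 575 nt, against 237 nt in the spliced one. Both began 45 nt downstream of the nearest annotated start.

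Genes of the same pathway outside the naming rule were taken from lists chosen by function. Of 11 further respiratory chain genes 7 had a model (63.6%, 35.4% to 84.8%), namely the cytochrome c genes Cyt-c-p and Cyt-c-d, the complex III gene ox, the complex IV genes cype and levy, and the ATP synthase genes blw and sun. The iron-sulfur protein gene RFeSP, the cytochrome c1 gene Cyt-c1, its copy Cyt-c1L and knon had none. All 5 genes of the ADP/ATP carriers (sesB, Ant2), the phosphate carriers (Mpcp1, Mpcp2) and porin had a model, as did 12 of 18 genes of the tricarboxylic acid cycle and pyruvate dehydrogenase. In these lists porin, Ogdh and ScsbetaA had more than 1 3′ end.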

How the data were processed

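FLAM-seq libraries were made from 4 µg of total RNA from w1118 heads, and the authors merged the 3 samples, mapped the reads to dm6 and built isoform models with FLAIR, using promoter-database 5′ ends and at least 2 full-length reads per model. They deposited exon start and end coordinates with gene identifiers, an assembly with no column named as counts. An unexplained number per model (column 8) was within 5% of the summed exon length in 84.6% of 5980 models and was not used further. The sources do not say whether the later 3′ end filter was applied.

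Models were matched by FBgn identifier to the Ensembl annotation of the BDGP6 assembly, and sequences were read from the RefSeq genome of the same build. Single-exon models were turned to their gene's strand. Ends were clustered by single linkage (50 nt at 5′ ends, 150 nt at 3′ ends). The event and clustering functions were tested on simulated data in Python 3.11.15 with scipy 1.17.1. The text names every member with several models, every member without a model, and the extremes of each complex. Members and lists were chosen with earlier results of these data known. The alternatives included other windows, recorded strands, subunits only and other length classes. The DRE and Motif 1 words, the annotated starts, the distance bins and the divergent genes were added after the data had been seen. Sequences on arm 2R are not printed. The end sequences of ND-B16.6 are not reported here. The DPE and pyrimidine start motifs were not searched.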

Additional observations from a re-analysis of the deposited data

How the results depend on the processing

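Of 29 results recomputed, 44 alternative values stayed within the interval of the value reported or within 1.5 times its count, and 8 moved beyond it. With subunits only, the share of genes with a model was 68.3% over all complexes, 75% in complex II and 81.8% in complex V. Coverage of all coding genes was 37.0% when only genes under 1000 nt were counted. Classed by the longest annotated transcript, members under 500 nt had a share of 22.2%, against 43.5% by the shortest. AATAAA was present in the last 30 nt at 30.8% of member ends, against 44.0% of all ends. The nuclear respiratory gene element word was present at 73.5% of member starts from 500 nt before to 500 nt after, against 16.8% of all starts. Allowing 1 intron to differ, 98.3% of member chains were annotated, against 96.0% of all chains. With a 300-nt window, 2 members had alternative 3′ ends. The values for exon number and length with subunits only were added after the data had been seen.

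No paired analysis was possible because the samples form 1 group and were merged before assembly, so leaving out a sample was not possible either. Depth is unknown, and a gene without a model is one for which too few reads met the requirements of the assembly, whatever its level.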
